A study of Mus musculus with 2 samples.

Results

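The 6 genes described here are mt-Cytb, mt-Co1, mt-Co2, mt-Co3, mt-Atp6 and mt-Atp8, the subunits of respiratory complexes III, IV and V that are encoded by mitochondrial DNA. They were taken by gene symbol from a table of 51826 genes, and all 6 were found. The table gives 1 value per gene for each of 2 libraries of mouse embryonic stem (ES) cells, pluripotent cells derived from the early embryo. The wild-type library came from v6.5 ES cells with the genotype label WT, and the T29I library from v6.5 ES cells with the genotype label T29I. The series title names PRSS1, a trypsinogen gene, as the mutated gene. Both libraries carry the strain label NBA1-19349, which differs from the line name v6.5, and the labels do not say how many clones, passages or cultures stand behind a library. RNA was total RNA after removal of ribosomal RNA. With 1 library per group there is no spread between replicates and no test, so "higher" and "lower" describe these 2 libraries. Genotype, culture and library preparation cannot be told apart.

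The mitochondrial chromosome is transcribed from both strands as long precursors that are cut into single RNAs, mostly at the tRNAs that lie between the coding genes. The mRNAs of a strand therefore start from a shared precursor, and their levels can differ afterwards through cleavage, polyadenylation and decay. Cytochrome b, the product of mt-Cytb, is the catalytic membrane subunit of complex III, which passes electrons from ubiquinol to cytochrome c. The products of mt-Co1, mt-Co2 and mt-Co3 form the core of complex IV (cytochrome c oxidase): COX1 holds the haem groups and the copper site where oxygen is reduced, COX2 takes electrons from cytochrome c, and COX3 packs against COX1. The products of mt-Atp6 and mt-Atp8 belong to the membrane part of complex V (ATP synthase), where ATP6 forms the proton path beside the rotating ring. Each of these complexes also needs many subunits made from nuclear genes.

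The genes lie close together, and some share bases, which bears on how reads can be given to one gene or another. In GENCODE M21 on the GRCm38 build all 6 are single-exon genes on the + strand of chromosome M: mt-Co1 at chrM:5328-6872, mt-Co2 at chrM:7013-7696, mt-Atp8 at chrM:7766-7969, mt-Atp6 at chrM:7927-8607, mt-Co3 at chrM:8607-9390 and mt-Cytb at chrM:14145-15288. The annotated genes hold coding sequence only. The reading frames of mt-Atp8 and mt-Atp6 overlap by 43 bases, and both are known to be translated from 1 mRNA. The whole mt-Atp8 gene is shown with those 43 bases in capitals, from the start codon of mt-Atp6 to the stop codon of mt-Atp8.
mt-Atp8, chrM:7766-7969: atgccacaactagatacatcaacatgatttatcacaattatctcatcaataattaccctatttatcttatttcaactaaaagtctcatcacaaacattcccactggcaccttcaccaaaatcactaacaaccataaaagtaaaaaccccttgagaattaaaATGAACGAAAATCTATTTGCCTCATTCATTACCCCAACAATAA
The same 43 bases open mt-Atp6, again in capitals.
mt-Atp6, first 60 bases, chrM:7927-7986: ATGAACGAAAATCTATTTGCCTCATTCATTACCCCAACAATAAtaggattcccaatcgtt
At its other end mt-Atp6 shares 1 base with mt-Co3, with no tRNA between them. The capital marks this base, which is the last of the mt-Atp6 stop codon and the first of the mt-Co3 start codon.
mt-Atp6 to mt-Co3, chrM:8578-8636: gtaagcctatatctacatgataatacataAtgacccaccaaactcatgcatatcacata
The 6 genes also differ in how they end. The last 30 bases of 4 of them are shown, with the letters past the last sense codon in capitals.
mt-Co1, chrM:6843-6872: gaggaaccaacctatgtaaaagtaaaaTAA
mt-Co2, chrM:7667-7696: ttcgaaaactgatctgcttcaataattTAA
mt-Co3, chrM:9361-9390: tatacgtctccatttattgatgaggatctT
mt-Cytb, chrM:15259-15288: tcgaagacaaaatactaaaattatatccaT
Like mt-Co1 and mt-Co2, mt-Atp6 and mt-Atp8 end in a full TAA. mt-Co3 and mt-Cytb end in a single T, and their stop codon is known to be completed by the poly(A) tail.

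As deposited, the members did not differ between the libraries in a common direction. mt-Co3, mt-Atp6 and mt-Co1 were higher in T29I cells by about 2-fold to over 3-fold. mt-Atp8 was slightly higher, and mt-Co2 and mt-Cytb had lower deposited values. Values are in TPM (transcripts-per-million), read numbers corrected for gene length and then scaled so that every library has the same total. The TPM of most genes was lower in T29I cells. Over the 9375 genes averaging 5 TPM or more, the T29I to wild-type log2 ratio had a median of -0.90, and ratios after subtracting this median are called "relative to the shift". All log2 ratios are on the log2(TPM + 1) scale, and paired values are given as wild-type, then T29I. As deposited, 2 of the 6 members were up and 0 down by 2-fold or more, against 9.97% and 45.7% of the 12943 genes averaging 1 TPM or more. Relative to the shift all 6 were above 0, as were 6649 of those 12943 genes. By 2-fold or more, 4 of 6 were up and 0 down on that scale, against 26.0% and 22.2% of those genes. The median log2 ratio of the members was 0.65, or 1.54 relative to the shift, beside -0.84 and 0.055 for all genes tested. All members but mt-Cytb made up the 5 most abundant genes of the table by mean TPM, and mt-Cytb was among the first 20. The plot of TPM by gene shows their values.

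**Figure D1:**
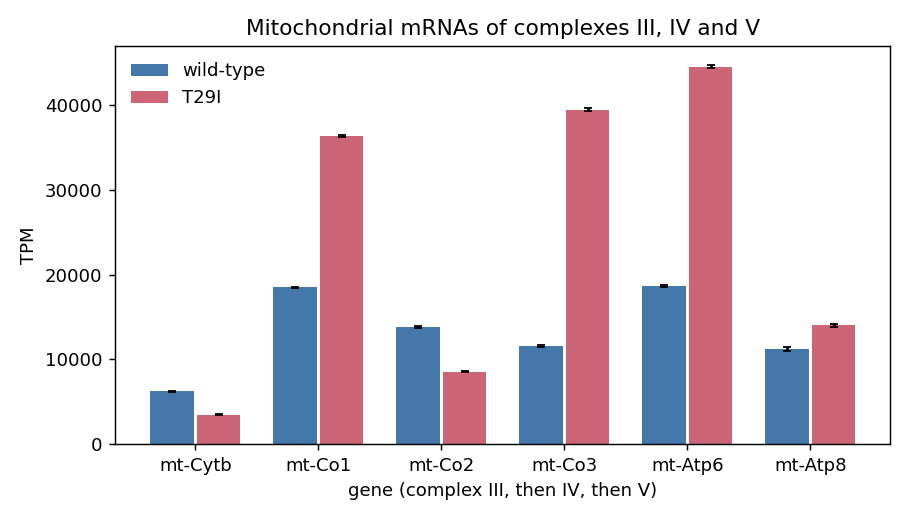
TPM of each member (vertical axis) in wild-type cells (blue) and the T29I library (red), 1 library each; error bars are 95% exact Poisson intervals of the estimated reads and cover counting error only. mt-Co3 went from 11592 to 39428 TPM, while mt-Cytb went from 6251 to 3479 TPM.

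mt-Cytb, the only complex III gene on the mitochondrial chromosome, measured 6251 TPM in wild-type cells (95% counting interval 6187 to 6315) and 3479 TPM in T29I cells (3437 to 3521). The intervals, from an estimated 37120 and 26291 reads, cover counting error only. Its deposited value was 1.80-fold lower in T29I cells (counting interval 1.77 to 1.83), and its log2 ratio was -0.85. Against the shift this came to 0.050, so mt-Cytb sat at the middle of all genes, and 50.2% of the genes tested had a higher ratio.

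Of the complex IV genes, mt-Co1 was at 18495 TPM in wild-type cells (18401 to 18590) and 36351 TPM in T29I cells (36235 to 36469). The 1.97-fold difference (1.95 to 1.98) gave a log2 ratio of 0.97, just under the 2-fold line, which became 1.87 relative to the shift. mt-Co3 was at 11592 TPM (11488 to 11697) and 39428 TPM (39257 to 39599). It had the largest ratio of the 6, 3.40-fold (3.37 to 3.44), with a log2 ratio of 1.77, and of 2.66 against the shift. Only 3.14% of the genes tested had a higher ratio. For mt-Co2 the level went from 13799 TPM (13677 to 13921) to 8549 TPM (8464 to 8634), 1.61-fold lower as deposited (1.59 to 1.64). Its log2 ratio was -0.69, and 0.20 relative to the shift, so its direction depends on the scaling.

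Of the complex V genes, mt-Atp6 was the most abundant RNA of the table in both libraries, at 18624 TPM in wild-type cells (18482 to 18767) and 44510 TPM in T29I cells (44316 to 44706). It was 2.39-fold higher in T29I cells (2.37 to 2.41), with a log2 ratio of 1.26, and of 2.15 against the shift. mt-Atp8, with only 204 bases the shortest member, was at 11210 TPM (11009 to 11413) and 14020 TPM (13821 to 14222). Its 1.25-fold difference (1.22 to 1.28) gave a log2 ratio of 0.32, which became 1.22 relative to the shift. Of this pair, which shares an mRNA, mt-Atp6 was at 1.66 times the TPM of mt-Atp8 in wild-type cells and 3.17 times in T29I cells. The adjustment for length and GC content described further on turned the order of their ratios, with mt-Atp8 then the higher by 0.58 on the log2 scale. The sources used here do not say how reads in the 43 shared bases were assigned.

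The order of the members changed as well. In the wild-type library mt-Atp6 and mt-Co1 led with overlapping counting intervals, followed by mt-Co2, mt-Co3, mt-Atp8 and mt-Cytb, whose intervals did not overlap. In the T29I library the order was mt-Atp6, mt-Co3, mt-Co1, mt-Atp8, mt-Co2 and mt-Cytb, with no overlapping intervals. Among all genes mt-Co2 went from rank 3 to rank 11 and mt-Cytb from rank 10 to rank 42, while mt-Co3 went from rank 5 to rank 2.

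Ratios between members within a library do not depend on how the library was scaled. Of the 15 pairs of members, 9 had a ratio that differed at least 2-fold between the libraries, near the share of 61.3% over all pairs of the genes averaging 1 TPM or more. mt-Co3, next to mt-Co2 in complex IV, was at 0.840 times the TPM of mt-Co2 in wild-type cells and 4.61 times in T29I cells, a 5.49-fold difference. mt-Co1 was at 1.34 and 4.25 times the TPM of mt-Co2. The widest pair was mt-Co3 over mt-Cytb, at 1.85 and 11.3, which differ 6.11-fold. The proportion of mt-Co2 to mt-Cytb stayed nearer, at 2.21 and 2.46. That of mt-Co1 to mt-Atp6 was 0.993 and 0.817.

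Summed over the 6 members, the level was 79971 TPM in wild-type cells and 146338 TPM in T29I cells, or 7.997% and 14.6% of all TPM. In estimated reads, which weight a gene by its length, the members took 2.13% and 5.62% of each library. By complex, the sum was 43886 and 84328 TPM for the complex IV genes and 29834 and 58531 TPM for the complex V genes. TPM has a fixed sum, so the levels of the members and of all other genes are not independent. When TPM was rescaled to the genes outside the mitochondrial chromosome, the members summed to 89597 and 177034, 1.98-fold higher. The median log2 ratio of the genes averaging 5 TPM or more, -0.90 as deposited, was -0.79 under this rescaling. It was -0.72 when TPM was rescaled without the 20 most abundant genes, so most of the shift remained. More mitochondria per cell, more RNA per mitochondrion and less nuclear RNA per cell cannot be told apart in bulk samples.

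The other coding genes of the chromosome show where the members' ratios stand among their neighbours. The 7 genes of complex I summed to 27464 and 27051 TPM, so the 6 members made up 74.4% of the mitochondrial mRNA in TPM in wild-type cells and 84.4% in T29I cells. Of those 7 genes, 1 was up and 1 down by 2-fold or more as deposited, against 9.97% and 45.7% of all genes tested. Their log2 ratios ran from -2.25 to 1.80 with a median of -0.62. Relative to the shift 2 were up and 1 down (median 0.28), against 26.0% and 22.2%. Once adjusted for length and GC content, as described below, 3 were up and 0 down (median 0.85), against 17.6% and 15.5%. In gene order, mt-Atp6, mt-Co3 and mt-Nd3 lie side by side. They were the 3 of the 13 mitochondrial mRNAs up by 2-fold or more in T29I cells as deposited. They held 55.2% of the mitochondrial mRNA in TPM in T29I cells against 31.3% in wild-type cells. The 3 were grouped with their ratios in view, so the larger share follows from that choice. mt-Atp8, which overlaps mt-Atp6, had a log2 ratio of 0.32. mt-Nd3 was at 3384 and 11758 TPM. The next gene, mt-Nd4l, separated from mt-Nd3 by 70 bases that hold a tRNA, was at 2481 and 520 TPM, 4.77-fold lower. On the other side mt-Co2, 69 bases before mt-Atp8, had a ratio like those of mt-Nd1, mt-Nd4, mt-Nd5 and mt-Cytb, which ranged from -0.85 to -0.62 on the log2 scale. mt-Nd6, the only coding gene on the other strand, was at 1944 and 2687 TPM. All 24 mitochondrial rRNA and tRNA genes were listed at 0 in both libraries.

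**Figure D2:**
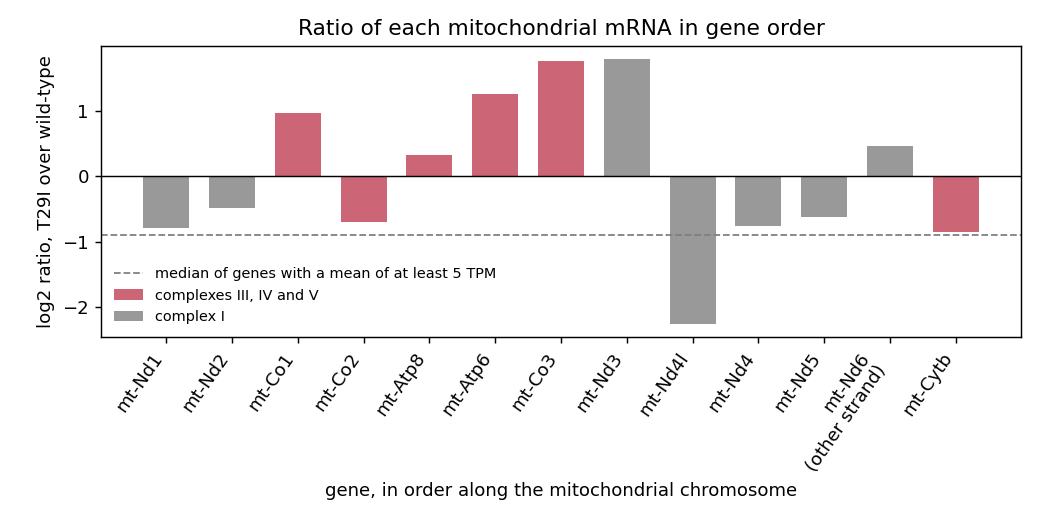
T29I to wild-type log2 ratio of TPM + 1 (vertical axis) for the 13 mitochondrial mRNAs in order along the chromosome, from 1 library each, with the members in red and the complex I genes in grey; the dashed line is the median of genes averaging 5 TPM or more. Neighbouring genes range from 1.77 for mt-Co3 and 1.80 for mt-Nd3 to -2.25 for mt-Nd4l.

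Across all genes the ratios followed length and GC content, and the members lie at the edge of both. A quadratic fit on length and GC content over 9100 protein-coding genes took 44.9% of the variance of their log2 ratios. Across those genes Spearman's rho of the ratio was 0.56 with GC content and -0.53 with length, so genes of low GC content tended to have low ratios and short genes high ones. The members had a GC content from 31.9% (mt-Atp8) to 39.9% (mt-Co1), against a median of 50.2% in the fitted genes, and lengths from 204 to 1545 bases against a median of 3174. After this adjustment the log2 ratio was 0.44 for mt-Cytb, 0.75 for mt-Co2, 2.24 for mt-Co1, 2.90 for mt-Atp6, 3.13 for mt-Co3 and 3.48 for mt-Atp8. All 6 were then above 0, and 4 of 6 were up and 0 down by 2-fold or more, against 17.6% and 15.5% of 12920 genes. The adjusted median of the members was 2.57, beside 0.040 for all genes. The adjusted values rest on few comparable genes, and the mitochondrial mRNAs, members included, were themselves among the fitted genes. Fitted genes outside the mitochondrial chromosome that were both as short and as low in GC content numbered 0 for mt-Atp8, 3 for mt-Atp6, 6 for mt-Co2, 8 for mt-Co3, 10 for mt-Cytb and 34 for mt-Co1. The adjusted values of mt-Cytb, mt-Co3, mt-Co2 and mt-Atp6 are therefore close to an extrapolation, and that of mt-Atp8 is one. The signs of mt-Co2 and mt-Cytb had already changed relative to the shift, at 0.20 and 0.050.

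**Figure D3:**
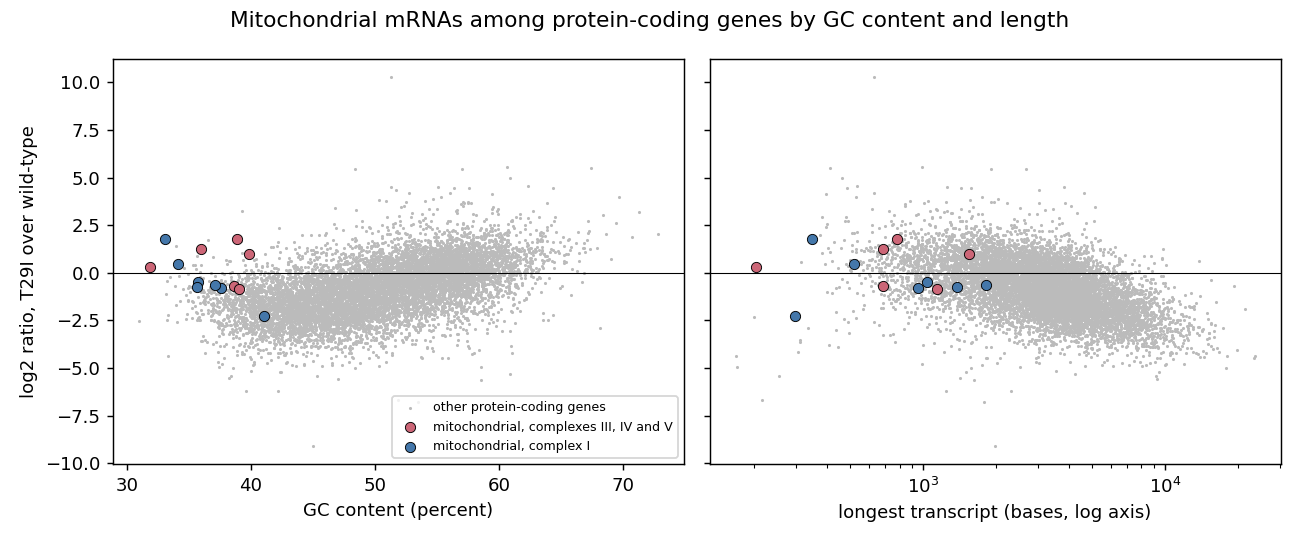
T29I to wild-type log2 ratio of TPM + 1 (vertical axes) against GC content in percent (left) and longest transcript in bases on a log axis (right) for protein-coding genes averaging 5 TPM or more (grey), with the members in red and the mitochondrial complex I genes in blue. The members lie between 31.9% and 39.9% GC, and mt-Co3, mt-Atp6 and mt-Co1 lie above most genes of like GC content.

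Some members that lie close in length or GC content had different ratios. mt-Co2 and mt-Atp6 are 684 and 681 bases long with a GC content of 38.6% and 35.98%, and their log2 ratios were -0.69 and 1.26. mt-Co3 and mt-Cytb have a GC content of 38.9% and 39.1% but are 784 and 1144 bases long, and their log2 ratios were 1.77 and -0.85. After adjustment 9 of the 15 pairs of members differed by at least 1 on the log2 scale, against 50.5% of all pairs of genes. The order of the 2 ratios turned with the adjustment in 3 of the 15 pairs, all of them with mt-Atp8. Over the 6 members Pearson's r of the log2 ratio was -0.044 with GC content and 0.014 with length, and Spearman's rho was -0.086 with each. Over all 13 mitochondrial mRNAs Pearson's r was -0.41 with GC content and -0.14 with length, and Spearman's rho was -0.40 and -0.19. These are descriptions over few genes of 1 chromosome measured in the same libraries. The part of length and GC content in the differences among the members was not tested.

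The nuclear genome holds copies of mitochondrial genes, which can take or give reads. A search of the annotated transcripts found 18 nuclear genes that match a member with at least 80% identity over at least 100 bases, of which 16 are in the table. Of those, 15 were listed at 0 in both libraries, and the other, Gm43743, was at 0.392 and 0.617 TPM. The closest copies form a block on chromosome 1 (chr1:24611535-24616197) that runs from the end of mt-Co1 into mt-Nd4. In it Gm28661 matches mt-Co2 over 681 bases, Gm10925 matches mt-Atp6 over 678 bases and Gm28437 matches mt-Co3 over 783 bases, each at 100% identity, and Gm29216 matches the last 483 bases of mt-Co1 at 99.8%. The closest copy found for mt-Cytb, Gm11410 on chromosome 4, matches at 92.9%, and that for mt-Atp8, Gm28925 on chromosome 1, at 81.4%. For mt-Atp8 this leaves out the block, where no matching transcript was found between Gm10925 (ending at 24614651) and Gm28661 (starting at 24614885). Gm10925 does hold the 43 bases that mt-Atp8 shares with mt-Atp6. The sequence between Gm10925 and Gm28661, where the rest of mt-Atp8 would lie, was not searched. The block holds both mt-Co2, with a lower deposited value in T29I cells, and mt-Atp6 and mt-Co3, with higher ones. The sources used here do not say how reads that match more than 1 place were treated, and the part of such reads in the members' values was not tested.

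The nuclear partners of the members range from catalytic and large core subunits to small subunits at the edge of each complex. Of 47 such genes of complexes III, IV and V, 44 averaged 1 TPM or more. As deposited 6 were up and 7 down by 2-fold or more, against 9.97% and 45.7% of all genes tested, and the median log2 ratio was 0.087 beside -0.84. Relative to the shift 20 were up and 1 down (median 0.98), against 26.0% and 22.2%. Once adjusted 10 were up and 6 down (median 0.0087), against 17.6% and 15.5%. The summed level of the nuclear subunits was 15637 and 17806 TPM, less than that of mt-Atp6 alone. The plot of subunits by complex sets the nuclear and mitochondrial genes side by side.

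**Figure D4:**
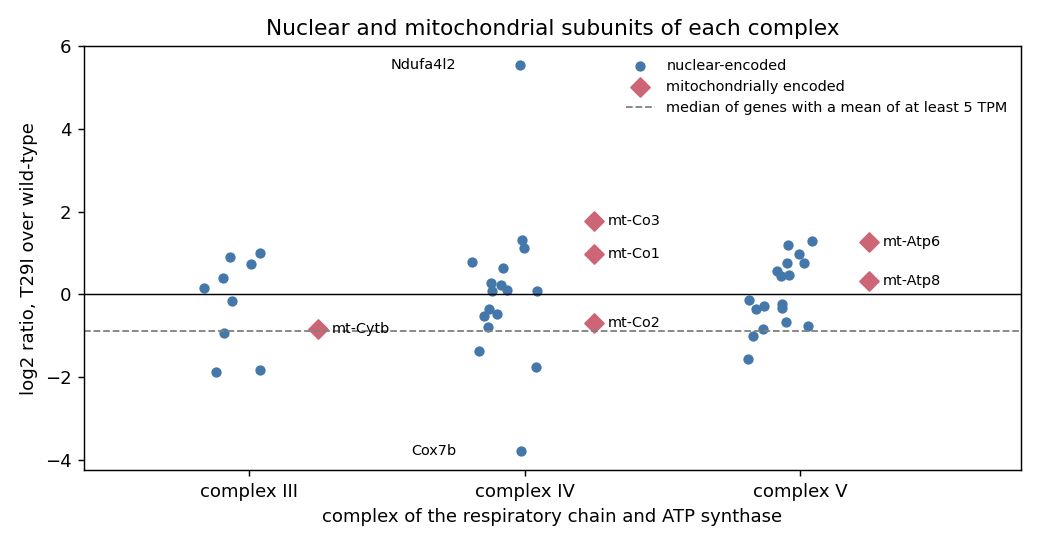
T29I to wild-type log2 ratio of TPM + 1 (vertical axis) for the nuclear-encoded subunits averaging 1 TPM or more (blue points) and the mitochondrially encoded members (red diamonds) of complexes III, IV and V, from 1 library each; the dashed line is the median of genes averaging 5 TPM or more. Cox7b at -3.79 and Ndufa4l2 at 5.54 lie outside the range of the members, -0.85 to 1.77.

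In complex III, 9 of 9 nuclear subunits were measured, with a median log2 ratio of 0.15, or 1.05 relative to the shift. Cyc1, which encodes cytochrome c1, was at 588 and 1185 TPM, and the core subunit gene Uqcrc1 at 237 and 446 TPM. The other core subunit gene, Uqcrc2, was at 217 and 60.03 TPM, and Uqcrb at 297 and 79.8 TPM. The partner genes of cytochrome b thus spread over both sides of mt-Cytb. After adjustment Cyc1 was at -0.086 and Uqcrc1 at 1.24.

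In complex IV, 17 of 20 genes reached a mean of 1 TPM, with medians of 0.087 and 0.98 relative to the shift. The lowest ratio was that of Cox7b, a small membrane subunit, at 373 and 26.1 TPM, 14.3-fold lower in T29I cells. The highest was that of Ndufa4l2, at 0.704 TPM in wild-type cells from an estimated 4 reads and 78.4 TPM in T29I cells from 567 reads. Its relative Ndufa4, which encodes a subunit now counted with complex IV, was at 257 and 74.9 TPM. Cox6a1 measured 523 and 1147 TPM, with an adjusted ratio of -0.76. Several subunits exist as a widespread form and a form of certain tissues or conditions. Cox4i1 was at 742 and 1268 TPM and its alternative Cox4i2, known from lung and low oxygen, at 1.71 and 5.76 TPM from an estimated 7 and 30 reads. Cox6a2, the heart and muscle form of Cox6a1, was listed at 0 in both libraries. Cox6b1 was at 572 and 689 TPM and its testis form Cox6b2 at 41.4 and 48.9 TPM. Cox7a2 was at 416 and 290 TPM and the muscle form Cox7a1 at 36.4 and 25.7 TPM. Cox8a was at 855 and 1333 TPM, Cox8c at 3.37 and 3.64 TPM, and Cox8b was listed at 0. The widespread form was the more abundant member in each of these pairs in both libraries except Ndufa4 and Ndufa4l2, which were near the same level in T29I cells.

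In complex V all 18 genes were measured, with a median log2 ratio of -0.18, or 0.71 relative to the shift. Atp5d, the delta subunit gene, was at 242 and 593 TPM. The 3 genes Atp5g1, Atp5g2 and Atp5g3 encode the same mature c subunit of the rotating ring, which turns against ATP6, and were at 123 and 281, 493 and 975, and 325 and 553 TPM. All 3 had higher deposited values, although Atp5g2 came to -0.97 once adjusted. Atp5j was at 126 and 42.1 TPM and Atp5f1, a stalk subunit gene, at 209 and 104 TPM. For the catalytic subunit genes, picked with their values in view, Atp5a1 stood at 1171 and 1002 TPM and Atp5b at 1440 and 1180 TPM.

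Assembly factors help to insert haem, copper and subunits into the complexes. Of 28 measured factors, 4 were up and 7 down by 2-fold or more as deposited, against 9.97% and 45.7% of all genes. Against the shift these counts were 14 and 1, beside 26.0% and 22.2%, and the median was 1.07. Once adjusted 8 were up and 0 down (median 0.52), beside 17.6% and 15.5%. Pet100, a complex IV factor, was at 17.2 and 49.8 TPM, and Uqcc2, a complex III factor needed for cytochrome b, at 149 and 412 TPM. Coa5 was at 72.6 and 16.8 TPM, and Atpaf1, a factor of the catalytic part of ATP synthase, at 33.6 and 8.56 TPM.

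Of 33 genes that maintain, transcribe and process mitochondrial DNA and RNA, 29 had a lower deposited value in T29I cells and 4 a higher one. Over all 12943 genes tested, 9249 were lower and 3694 higher. As deposited, 0 of the 33 were up and 20 down by 2-fold or more, against 9.97% and 45.7% of all genes. Their median log2 ratio was -1.23 beside -0.84. Relative to the shift 12 of the 33 were above 0, beside 6649 of the 12943 genes. On that scale 4 were up and 8 down by 2-fold or more (median -0.34), against 26.0% and 22.2%. Once adjusted 2 were up and 4 down (median 0.16), against 17.6% and 15.5%. Lrpprc, which encodes an RNA-binding protein that stabilises mitochondrial mRNAs, was at 66.7 and 8.15 TPM, with an adjusted log2 ratio of -1.41. Mterf1a, of the mitochondrial termination factor family, was at 12.2 and 0.496 TPM. The highest ratios were those of Tbrg4, an RNA-binding FASTK family gene, at 113 and 147 TPM and Hsd17b10, a subunit of mitochondrial RNase P, at 100.03 and 125 TPM. Among 15 genes of the import machinery, outer membrane and matrix, 0 were up and 4 down by 2-fold or more as deposited, beside 9.97% and 45.7% of all genes. Against the shift 6 were up and 2 down, beside 26.0% and 22.2%, and once adjusted 4 were up and 3 down, beside 17.6% and 15.5%. Tomm40, the import channel gene, was at 117 and 221 TPM and Phb at 395 and 705 TPM, while the matrix chaperone genes Hspd1 and Hspa9 were at 1478 and 349 and at 665 and 139 TPM.

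With 2 libraries a gene has only 1 ratio, so likeness to the members can only be judged by that ratio. Of 242 genes outside the mitochondrial chromosome averaging 500 TPM or more, 16 lay within 0.1 of the members' median log2 ratio. The nearest 4 were P4hb at 464 and 731 TPM, Rps7 at 1559 and 2457 TPM, Pebp1 at 425 and 663 TPM and Cox8a. The members themselves ranged from -0.85 to 1.77 around this median. Once adjusted, these 4 genes were at 1.04, 0.93, 0.033 and -0.48, against a median of 2.57 for the members.

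Facts of the libraries bear on all values. The estimated depth was 16910001 and 15281662 reads, and 19332 and 17704 genes were above 0. Prss1 was listed at 0 TPM in both libraries, so its level checks no label. All 6 ES cell markers reached 1 TPM in both libraries, with a summed level of 4128 and 2138 TPM, among them Pou5f1 at 1722 and 1454 TPM and Zfp42 at 544 and 23.3 TPM. The 8 fibroblast markers summed to 7.24 and 19.7 TPM, of which Thy1, also made by other cells, gave most. The 6 trophoblast markers summed to 81.2 and 137 TPM. Hand1 was at 0.868 and 79.5 TPM and Gata3 at 0.339 and 1.56 TPM, from an estimated 7 and 41 reads. Tfap2c was at 73.4 and 53.1 TPM, Eomes at 6.21 and 2.19 TPM, and Cdx2 and Elf5 under 1 TPM. The 5 primitive endoderm markers summed to 1.90 and 1.26 TPM. The 6 erythroid markers summed to 0.631 and 1254 TPM, and Hbb-bs gave nearly all of the T29I value. The part of these marker differences in the ratios of the members was not tested.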

How the data were processed

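RNA was measured in 1 wild-type and 1 T29I library of mouse ES cells. Per the labels' protocols, libraries were made with a stranded total RNA kit after removal of ribosomal RNA. The authors deposited 1 table of TPM values with gene symbols and Ensembl identifiers, and each column sums to 1000000. The sources used here name no aligner, counter, build or annotation. Columns were assigned through the sample descriptions.

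Of 51826 identifiers, 51633 matched GENCODE M21 (GRCm38), which gave lengths, GC content, coordinates and sequences. TPM times merged exon length, divided by the value of 1 read, was whole within 0.05 for 81.0% and 79.9% of values above 0, against 10% by chance, and for all 6 members in both libraries. These estimated reads gave 95% exact Poisson intervals for levels and Clopper-Pearson intervals for ratios (scipy 1.17.1), which cover counting error only. Read recovery and the adjustment were tested on simulated data. The simulated reads used the same gene lengths, and the simulated bias had a form that the fit can represent. The check therefore does not show how well the adjustment holds for the members. No count model was fitted because the values are TPM and each group has 1 library. The pseudocount was 1, and genes averaging under 1 TPM were not counted. The adjustment took what a quadratic fit left unexplained, with GC content and log2 length of the longest transcript as terms, over protein-coding genes averaging 5 TPM or more. Nuclear copies were sought with blastn 2.17.0 in annotated transcripts, not in the whole genome. The text names all members, the 2 highest and 2 lowest ratios of each nuclear list among genes averaging 5 TPM or more, isoform pairs of complex IV, the Atp5g genes, copies above 0, mt-Nd6, and the 4 genes nearest to the members' median. Other mitochondrial genes, the closest copies, Atp5a1, Atp5b and single markers were named after their values were seen. Members and lists were chosen with earlier results of these data known.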

Additional observations from a re-analysis of the deposited data

How the results depend on the processing

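The 4 members with higher deposited values were mt-Co1, mt-Co3, mt-Atp6 and mt-Atp8. They stayed above 0 relative to the shift, under both rescalings, with a pseudocount of 0.1 and after the length and GC adjustment. mt-Co2 and mt-Cytb were above 0 relative to the shift and after the adjustment and below 0 under the other 3. Subtracting the negative shift raises every ratio, both rescalings raised all 6, and a pseudocount cannot change a sign. Among these settings only the adjustment could have turned a higher value lower. A pseudocount of 0.1 left all 6 log2 ratios within their counting error. Adding the nuclear copies says nothing about stability, since 15 of the 16 were listed at 0. The median log2 ratio of the members, 0.65 as deposited, was 1.54 relative to the shift, 0.76 with TPM rescaled to nuclear genes, 0.83 rescaled without the 20 most abundant genes and 2.57 after the adjustment. Members at least 2-fold higher numbered 2 as deposited and 3 under each rescaling, where mt-Co1 passed the line. Rescaling to nuclear genes put 1499 of all genes that much higher and 5654 lower. Rescaling without the 20 most abundant put 1651 higher and 5494 lower, against 1290 and 5909 as deposited. Members at least 2-fold higher numbered 4 relative to the shift and after the adjustment. Under every setting 0 members were 2-fold lower, a count that the shift and the rescalings could not increase. The summed level, 1.83-fold higher as deposited, was 1.98-fold higher rescaled to nuclear genes and 2.08-fold higher without the 20 most abundant genes, which include all 6 members. Of all genes, 3371 and 2867 were at least 2-fold higher and lower relative to the shift and 2268 and 2003 after the adjustment, against 1290 and 5909. Of the nuclear subunits, 20 and 1 were higher and lower relative to the shift and 10 and 6 after the adjustment, against 6 and 7. No paired analysis was possible because each group has 1 library. The counting intervals of the members are narrow at this depth but hold no spread between replicates, which 1 library per group cannot give.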
